A study of Mus musculus with 30 samples.

Results

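Muscle mass is set by a circuit of secreted ligands, their receptors, transcription factors and ubiquitin ligases, and 9 genes of this circuit were followed in Achilles tendon: Mstn, Fst, Acvr2b, Trim63, Fbxo32, Foxo1, Foxo3, Hdac4 and Mettl21e. They were taken by gene symbol from a table of 55426 genes, and all 9 were measured above the filter on low counts in tendon and in bone. The libraries came from a mouse study in which muscle of the stimulated groups was loaded by light. They sampled both the Achilles tendon and the heel bone on which it inserts, the calcaneus. Tendon libraries fell into 5 groups of 3, namely stimulated tendon at day 5 with its unstimulated control at day 5, stimulated tendon at day 12 with its unstimulated control at day 12, and naive tendon at day 0. Calcaneus had the same 5 groups of 3. All groups, naive and unstimulated ones too, had the same genotype, given as Acta1,Ai32. Acta1 encodes the actin of skeletal muscle, and the Ai32 allele carries a channelrhodopsin that opens in light. The labels name no Cre line, light schedule, age or sex, and do not say whether replicates were separate animals.

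Myostatin, the product of Mstn, is a secreted brake on muscle growth. Follistatin binds and blocks it, and the activin type IIB receptor passes its signal on to SMAD proteins. When growth signals through AKT weaken, FOXO factors enter the nucleus and switch on the ubiquitin ligases MuRF1, the product of Trim63, and atrogin-1, the product of Fbxo32, which mark muscle proteins for breakdown. Hdac4 encodes a class IIa histone deacetylase that represses MEF2 target genes and, in mouse muscle, takes part in the response to loss of nerve input. Mettl21e encodes a protein lysine methyltransferase of the METTL21 family found in skeletal muscle.

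Total gene counts ran from 24488997 to 44566322 per tendon library and from 19255983 to 35035536 per bone library as deposited, and 17108 genes were tested in tendon and 18851 in bone. At day 5, unstimulated bone samples 1 and 2 were far closer to each other than other pairs (chi-square per gene 6.28, against 18.8 to 208 in 29 other pairs) and were counted as 1 library, which left 14. The tendon label was checked against markers. All 8 tendon fibroblast markers, Scx, Mkx and Tnmd among them, were detected in every tendon group, but they summed to between 0.213% and 0.378% of the counts in naive tendon. All 25 muscle fibre genes, such as Acta1, Ckm and Myh4, were also detected and took 14.8% to 19% of the counts there, so that the libraries held much muscle RNA beside that of tendon. That share was 17.8% to 19.1% in stimulated and 16.7% to 23.8% in unstimulated tendon at day 5, and 21.1% to 23.9% in stimulated and 23.3% to 24.5% in unstimulated tendon at day 12. The tendon fibroblast share was 0.0878% to 0.209% in stimulated and 0.0711% to 0.219% in unstimulated tendon at day 5. At day 12 it was 0.0426% to 0.148% in stimulated and 0.0594% to 0.115% in unstimulated tendon, both below the range of naive tendon. In bone libraries the same markers took 0.161% to 0.513% of the counts. In bulk samples, fewer cells of a type and less RNA per cell cannot be told apart.

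The levels of the 9 genes in naive tendon spanned a wide range once divided by transcript length. Counts were scaled to the library's total (CPM), and per kilobase of merged exons Trim63 stood highest at 88.6 ± 27.0 and Fbxo32 next at 18.6 ± 1.12 (mean ± SD, n = 3). Mstn at 4.09 ± 1.95, Foxo3 at 3.99 ± 0.119, Fst at 3.59 ± 0.352, Foxo1 at 3.04 ± 0.212 and Hdac4 at 2.18 ± 0.117 followed. The Mstn libraries, at 2.90 to 6.34, overlapped those of Foxo3, Fst and Foxo1, and Foxo3 overlapped Fst, so that these neighbours do not differ beyond their spread, whereas Fst and Foxo1, and Foxo1 and Hdac4, did not overlap. Acvr2b at 1.34 ± 0.286 and Mettl21e at 0.286 ± 0.0537 were lowest. Mettl21e rested on 35 to 126 counts per tendon library and Acvr2b on 122 to 278, whereas Trim63 had 6016 to 14827.

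Of the 9 genes, 3 share chromosome 1 (GRCm38, 1-based coordinates), where they lie far apart. Mstn (ENSMUSG00000026100) spans 53061640 to 53068079 on the plus strand of chromosome 1, Mettl21e (ENSMUSG00000046828) 44204070 to 44218961 on its minus strand, and Hdac4 (ENSMUSG00000026313) 91928779 to 92195699 on its minus strand. Fst lies on chromosome 13 at 114452290 to 114458951 (minus strand), Acvr2b on chromosome 9 at 119402118 to 119434995 (plus), Trim63 on chromosome 4 at 134315120 to 134329629 (plus) and Fbxo32 on chromosome 15 at 58175879 to 58214932 (minus). Foxo1 lies on chromosome 3 at 52268336 to 52353221 (plus) and Foxo3 on chromosome 10 at 42181841 to 42276755 (minus). Exons of Fst, Fbxo32, Foxo1 and Hdac4 overlap a gene on the opposite strand. Those partners held at most 0.625% of the counts of the gene they overlap, at Fbxo32, while the partner of Hdac4, Gm26720, was not matched in the table. The strand setting of the counting is not given in the sources used here, so reads of such a pair cannot be told apart.

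The upstream sequences of Mstn, Trim63 and Hdac4 are shown because the first 2 followed muscle fibre content in bone and Hdac4 was the gene called between stimulated and unstimulated tendon. Each is the 250 bases before the RefSeq transcription start on GRCm38.p6, read 5′ to 3′ on the gene's strand, and 6 of the 9 genes had such an entry. For Mstn (chr1:53061390-53061639, plus strand) capitals mark E-boxes, the CANNTG letters that myogenic helix-loop-helix factors such as MyoD can bind. For Trim63 (chr4:134314870-134315119, plus strand) capitals mark the FOXO motif GTAAACA, here on the reverse strand. The Hdac4 sequence (chr1:92180342-92180591, minus strand) held none of the motifs searched and lies within the gene as GENCODE draws it, since RefSeq places the start downstream of the GENCODE end.
Mstn: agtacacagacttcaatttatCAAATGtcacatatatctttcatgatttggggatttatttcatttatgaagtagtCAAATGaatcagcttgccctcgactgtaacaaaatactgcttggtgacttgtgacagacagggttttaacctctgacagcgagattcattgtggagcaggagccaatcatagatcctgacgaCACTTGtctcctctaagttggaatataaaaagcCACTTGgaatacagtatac
Trim63: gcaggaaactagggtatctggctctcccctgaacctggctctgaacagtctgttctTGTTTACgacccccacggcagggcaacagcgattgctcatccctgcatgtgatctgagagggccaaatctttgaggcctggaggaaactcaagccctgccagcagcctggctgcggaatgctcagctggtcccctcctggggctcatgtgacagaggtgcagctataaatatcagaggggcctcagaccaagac
Hdac4: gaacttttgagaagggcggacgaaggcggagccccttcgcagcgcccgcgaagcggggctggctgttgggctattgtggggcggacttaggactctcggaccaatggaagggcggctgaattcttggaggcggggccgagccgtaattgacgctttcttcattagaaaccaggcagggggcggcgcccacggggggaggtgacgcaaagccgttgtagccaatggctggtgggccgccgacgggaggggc
Of 32851 promoters of this length, 66.2% held an E-box and 3.2% the FOXO motif, each searched on both strands. Mstn had 4 E-boxes and Trim63 had 3, which are among its lower-case letters above. The FOXO letters of Trim63 began 194 bases before the start, at position -194. The SMAD letters CAGAC occurred 2 times each in Mstn and Trim63 and 1 time in Acvr2b, and 42.2% of promoters held them. A MEF2 motif was in none of the 6, and in 2.9% of promoters. Matches were counted motif by motif and may share letters, and a match is a description of letters and no evidence of binding.

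Of the 9 genes, 1 differed between stimulated and unstimulated tendon: Hdac4 was 1.54-fold higher in stimulated tendon at day 5, a call that was lost when any of 5 of the 6 libraries was left out. Fbxo32 had 3 of 3 stimulated libraries above 3 of 3 unstimulated ones at day 5 but did not pass the test, and at day 12 none of the 9 genes passed. Against naive tendon, Mettl21e was higher at both days with and without stimulation, Fbxo32 was higher at day 12 with and without stimulation and at day 5 with it, Hdac4 was higher with stimulation at both days, and Mstn was higher in unstimulated tendon at day 12. The ligase gene Trim63, the FOXO genes Foxo1 and Foxo3, Fst and Acvr2b passed in no comparison within tendon.

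These calls rest on edgeR's quasi-likelihood test with Benjamini-Hochberg adjustment over all genes tested and a threshold of 0.05. The shares of all genes that passed were 0.0585% for stimulated against unstimulated tendon at day 5 (1 of 9 members) and 0.345% at day 12 (0 of 9). Against naive tendon they were 2.29% for stimulated tendon at day 5 (3 of 9 members), 0.0351% for unstimulated tendon at day 5 (1 of 9), 24.4% for stimulated tendon at day 12 (3 of 9) and 18.8% for unstimulated tendon at day 12 (3 of 9). All of the members called in tendon were higher. The share of all genes called higher was 0.0351% for stimulated against unstimulated tendon at day 5, and against naive tendon 0.871% in stimulated and 0.0234% in unstimulated tendon at day 5, and 11.8% in stimulated and 8.17% in unstimulated tendon at day 12.

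Groups that did not overlap were also counted, for members that passed and members that did not alike. The stimulated libraries of 2 members lay wholly above the unstimulated ones at day 5, where 7.1% of all genes did so, and those of 1 member at day 12, where 7.65% did so. Against naive tendon, all libraries were higher for 4 members in stimulated tendon at day 5 (14.4% of all genes) and 4 in unstimulated tendon at day 5 (6.36%), and for 3 in stimulated tendon at day 12 (19.2%) and 5 in unstimulated tendon at day 12 (22.3%). The members' median log2 fold change for stimulated against unstimulated tendon was 0.15 at day 5 and -0.05 at day 12, beside 0 and 0.01 over all genes. Comparisons with naive tendon share the same 3 naive libraries, and each stimulated group is also set against its unstimulated control.

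**Figure D1:**
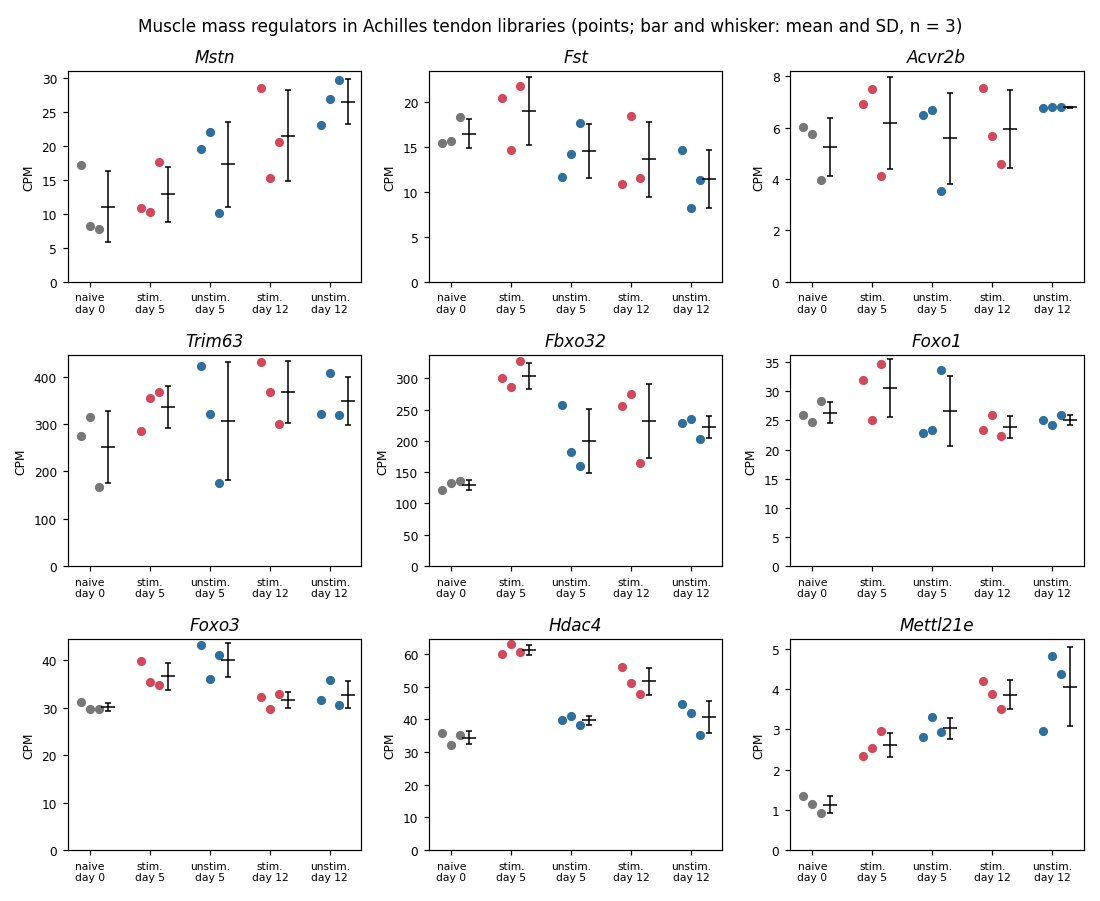
Each panel plots 1 gene in CPM on an axis from 0, with a point per library and the mean and SD beside it (n = 3 per group), for naive tendon at day 0 and for stimulated and unstimulated tendon at days 5 and 12. The 3 stimulated Hdac4 libraries at day 5 sit at 60.0 to 63.0 CPM, above every other tendon library, and naive Mettl21e and Fbxo32 sit below every later library.

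Mstn, which encodes the ligand myostatin, had more RNA in unstimulated tendon at day 12 than in naive tendon. Stimulation did not separate it in edgeR's test. Mstn had 10.8, 10.3 and 17.6 CPM in stimulated tendon at day 5, against 19.6, 22.1 and 10.2 CPM in unstimulated tendon at day 5. It had 28.6, 15.3 and 20.6 CPM in stimulated tendon at day 12, against 23.1, 26.9 and 29.7 CPM in unstimulated tendon at day 12. Both pairs of groups overlapped, and the log2 fold change for stimulated against unstimulated was -0.41 ± 0.36 at day 5 (± gives the standard error of a fold change; 95% interval -1.20 to 0.37) and -0.31 ± 0.36 at day 12 (-1.08 to 0.46). The intervals thus allow differences of either sign. With limma-voom, an alternative method, Mstn passed as lower in stimulated than in unstimulated tendon at day 5 (adjusted p = 0.0357).

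Naive tendon had 17.2, 8.22 and 7.84 Mstn CPM, replicate 1 being the highest of the 3. Unstimulated tendon at day 12 averaged 26.6 ± 3.31 CPM (SD, n = 3), against 11.1 ± 5.27 CPM in naive tendon, and its 3 libraries lay above all 3 naive ones (log2 fold change 1.26 ± 0.36, edgeR adjusted p = 0.0324). Stimulated tendon at day 12 averaged 21.5 ± 6.71 CPM and did not pass against naive tendon (0.95 ± 0.36, adjusted p = 0.0718). The unstimulated call held without naive replicate 1 (1.73, adjusted p = 0.0186) but was lost without any other of the 6 libraries (1.06 to 1.35, adjusted p 0.0584 to 0.126). The muscle fibre share of the counts was 23.3% to 24.5% in unstimulated tendon at day 12 and 14.8% to 19% in naive tendon, and with a muscle fibre score as covariate the Mstn value was 1.39 (adjusted p = 0.0854). The score, a mean of log2 values, did not follow that share closely in tendon. Stimulated replicate 3 at day 12 had the lowest score (11.55) at a share of 23%, and naive replicate 3 had 11.68 at 14.8%. Fits with this score in tendon, here and below, thus cannot remove differences in that share. The part of muscle fibre content in the Mstn result was not tested.

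The genes of follistatin and the activin type IIB receptor passed in no tendon comparison. Fst, the extracellular inhibitor, averaged 19 ± 3.72 CPM in stimulated and 14.5 ± 3.05 CPM in unstimulated tendon at day 5, and 13.6 ± 4.20 CPM in stimulated and 11.4 ± 3.22 CPM in unstimulated tendon at day 12 (SD, n = 3 each). Its log2 fold change for stimulated against unstimulated was 0.38 ± 0.24 at day 5 (interval -0.14 to 0.90) and 0.26 ± 0.25 at day 12 (-0.27 to 0.79). Unstimulated tendon at day 12 had 14.7, 8.22 and 11.3 Fst CPM, all below the 15.4, 15.7 and 18.3 CPM of naive tendon. That difference did not pass (-0.53 ± 0.24, adjusted p = 0.138). Fst was the member whose 3 libraries lay below naive tendon at day 12, as 25.4% of all genes did.

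Acvr2b, the receptor, had nearly equal values in unstimulated tendon at day 12, at 6.78, 6.82 and 6.79 CPM, against 6.02, 5.77 and 3.96 CPM in naive tendon, so that these groups did not overlap (log2 fold change 0.37 ± 0.27, adjusted p = 0.348). It ran from 4.57 to 7.56 CPM in stimulated tendon at day 12, and from 4.13 to 7.51 CPM in stimulated and 3.55 to 6.70 CPM in unstimulated tendon at day 5. Replicate 3 was the lowest in each of these 3 groups and in naive tendon, and stimulated and unstimulated libraries overlapped at both days. The log2 fold change for stimulated against unstimulated was 0.15 ± 0.27 at day 5 (interval -0.44 to 0.74) and -0.20 ± 0.28 at day 12 (-0.80 to 0.39).

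Foxo1 and Foxo3, the FOXO transcription factor genes among the 9 members, passed in no tendon comparison with edgeR. Foxo1 had group means between 23.9 and 30.6 CPM in all 5 tendon groups. Its log2 fold change for stimulated against unstimulated was 0.20 ± 0.14 at day 5 (interval -0.11 to 0.51) and -0.07 ± 0.14 at day 12 (-0.38 to 0.24). Foxo3 stood highest at day 5, with 39.9, 35.3 and 34.7 CPM in stimulated tendon and 43.1, 36.0 and 41.0 CPM in unstimulated tendon, all above the 31.2, 29.6 and 29.7 CPM of naive tendon. The stimulated and unstimulated libraries overlapped (-0.13 ± 0.09, interval -0.32 to 0.06).

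Neither day 5 group passed for Foxo3 against naive tendon, at 0.28 ± 0.09 with stimulation (adjusted p = 0.111) and 0.41 ± 0.09 without it (adjusted p = 0.272). More genes passed in the stimulated comparison (2.29%) than in the unstimulated one (0.0351%), and the adjusted p depends on that number. With DESeq2 the unstimulated value was 0.41 with an adjusted p of 0.0135. At day 12, Foxo3 averaged 31.6 ± 1.64 CPM in stimulated and 32.6 ± 2.87 CPM in unstimulated tendon, close to the 30.2 ± 0.900 CPM of naive tendon (SD, n = 3 each).

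Of the ligase genes, Fbxo32 passed against naive tendon and Trim63 did not, and a difference between these genes was not tested. Fbxo32, which encodes atrogin-1, had 300, 286 and 327 CPM in stimulated tendon at day 5, against 258, 182 and 159 CPM in unstimulated tendon at day 5. At day 12 it had 255, 275 and 165 CPM in stimulated tendon and 229, 235 and 203 CPM in unstimulated tendon. Naive tendon had 121, 133 and 136 CPM, below every library of the 4 later groups, while stimulated replicate 3 at day 12 and unstimulated replicate 3 at day 5 were the lowest of those.

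Relative to naive tendon, Fbxo32 rose 2.34-fold in stimulated tendon at day 5 (log2 fold change 1.23 ± 0.19, adjusted p = 0.0106), 1.78-fold in stimulated tendon at day 12 (0.83 ± 0.19, adjusted p = 0.00919) and 1.71-fold in unstimulated tendon at day 12 (0.77 ± 0.19, adjusted p = 0.0181). The value for unstimulated tendon at day 5 was 0.62 ± 0.19 and did not pass (adjusted p = 0.344). For stimulated against unstimulated tendon it was 0.61 ± 0.19 at day 5 (interval 0.21 to 1.01, adjusted p = 0.365), and 0.06 ± 0.19 at day 12 (-0.34 to 0.46, adjusted p = 0.959).

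The Fbxo32 call in stimulated tendon at day 5 was lost without naive replicate 3 (1.26, adjusted p = 0.0533) or stimulated replicate 1 (1.24, adjusted p = 0.0609). The call in unstimulated tendon at day 12 was lost without naive replicate 3 (0.81, adjusted p = 0.0640), unstimulated replicate 1 (0.75, adjusted p = 0.0511) or unstimulated replicate 2 (0.73, adjusted p = 0.0806). With the muscle fibre score as covariate, that value was 0.59 (adjusted p = 0.0945), and the stimulated value at day 12 was 0.80 (adjusted p = 0.00749). The stimulated call at day 12 held without each of its 6 libraries in turn (0.69 to 1.03).

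Trim63, which encodes MuRF1, varied widely among replicates and passed in no tendon comparison. It had 285, 356 and 367 CPM in stimulated tendon at day 5, against 422, 321 and 175 CPM in unstimulated tendon at day 5. It had 432, 368 and 301 CPM in stimulated tendon at day 12, against 322, 408 and 318 CPM in unstimulated tendon at day 12, and 275, 314 and 166 CPM in naive tendon. The 3 unstimulated libraries at day 12 lay just above the naive ones, and every other pair of groups overlapped. The log2 fold changes were 0.14 ± 0.29 at day 5 (interval -0.48 to 0.76) and 0.07 ± 0.29 at day 12 (-0.55 to 0.69) for stimulated against unstimulated tendon, and 0.28 to 0.54 for the 4 later groups against naive tendon (adjusted p 0.180 to 0.717). The Trim63 intervals do not exclude a change as large as the Hdac4 change at day 5.

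Hdac4, the class IIa deacetylase, was the member that differed between stimulated and unstimulated tendon. It had 60.0, 63.0 and 60.5 CPM in stimulated tendon at day 5, against 39.8, 41.0 and 38.2 CPM in unstimulated tendon at day 5, with no overlap and SDs of 1.60 and 1.45 CPM. The log2 fold change was 0.63 ± 0.09 (interval 0.44 to 0.82, adjusted p = 0.0231). At day 12 it had 56.0, 51.1 and 47.7 CPM in stimulated tendon, against 44.8, 41.9 and 35.3 CPM in unstimulated tendon. All 3 stimulated libraries were again higher, and the log2 fold change of 0.34 ± 0.09 did not pass (interval 0.15 to 0.53, adjusted p = 0.112).

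Relative to the 35.8, 32.3 and 35.2 CPM of naive tendon, Hdac4 rose with stimulation at day 5 (0.83 ± 0.09, adjusted p = 0.00153) and at day 12 (0.58 ± 0.09, adjusted p = 0.00214). The unstimulated groups did not pass, at 0.20 ± 0.09 at day 5 (adjusted p = 0.430) and 0.24 ± 0.09 at day 12 (adjusted p = 0.0698). Of the 6 libraries compared at day 5, the stimulated against unstimulated call held without stimulated replicate 3 (0.63, adjusted p = 0.0340) and was lost without each of the other 5, at 0.60 to 0.64 with adjusted p 0.0733 to 0.166. With the compared libraries alone it was 0.62 (adjusted p = 0.0774). With the muscle fibre score as covariate it was as large, at 0.65 (adjusted p = 0.0228). The stimulated calls against naive tendon held without each library in turn, at 0.79 to 0.86 at day 5 and 0.51 to 0.64 at day 12.

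Of the 9 genes, Mettl21e had the largest fold change from naive tendon in stimulated tendon at day 12 and in unstimulated tendon at both days, while in stimulated tendon at day 5 Fbxo32 was at 1.23 and Mettl21e at 1.20 on the log2 scale. Mettl21e had 2.35, 2.54 and 2.95 CPM in stimulated and 2.82, 3.32 and 2.94 CPM in unstimulated tendon at day 5, and 4.21, 3.88 and 3.50 CPM in stimulated and 2.96, 4.83 and 4.39 CPM in unstimulated tendon at day 12. Naive tendon had 1.34, 1.14 and 0.918 CPM, so that every later library was above every naive one. Stimulated and unstimulated libraries overlapped at each day, at -0.21 ± 0.19 at day 5 (interval -0.63 to 0.21) and -0.07 ± 0.19 at day 12 (-0.49 to 0.34).

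Against naive tendon, Mettl21e rose 2.3-fold in stimulated (log2 fold change 1.20 ± 0.20, adjusted p = 0.0162) and 2.66-fold in unstimulated tendon at day 5 (1.41 ± 0.20, adjusted p = 0.0285). At day 12 it rose 3.38-fold in stimulated (1.76 ± 0.20, adjusted p = 0.000656) and 3.56-fold in unstimulated tendon (1.83 ± 0.20, adjusted p = 0.00122). Both calls at day 12 held without each library in turn and with the muscle fibre score as covariate (1.77 in stimulated and 1.94 in unstimulated tendon). With that covariate at day 5, the stimulated call held (1.29, adjusted p = 0.0284) and the unstimulated call was lost (1.54, adjusted p = 0.163). The unstimulated call at day 5 was also lost with the replicate block (1.40, adjusted p = 0.0571) and in a fit of only the libraries compared (1.41, adjusted p = 0.262). It held without unstimulated replicate 3 (1.43, adjusted p = 0.0371) and was lost without any of the other 5 libraries (1.28 to 1.55, adjusted p 0.126 to 0.208). The stimulated call at day 5 was lost without naive replicate 3 (1.07, adjusted p = 0.0853) or stimulated replicate 1 (1.27, adjusted p = 0.0610).

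**Figure D2:**
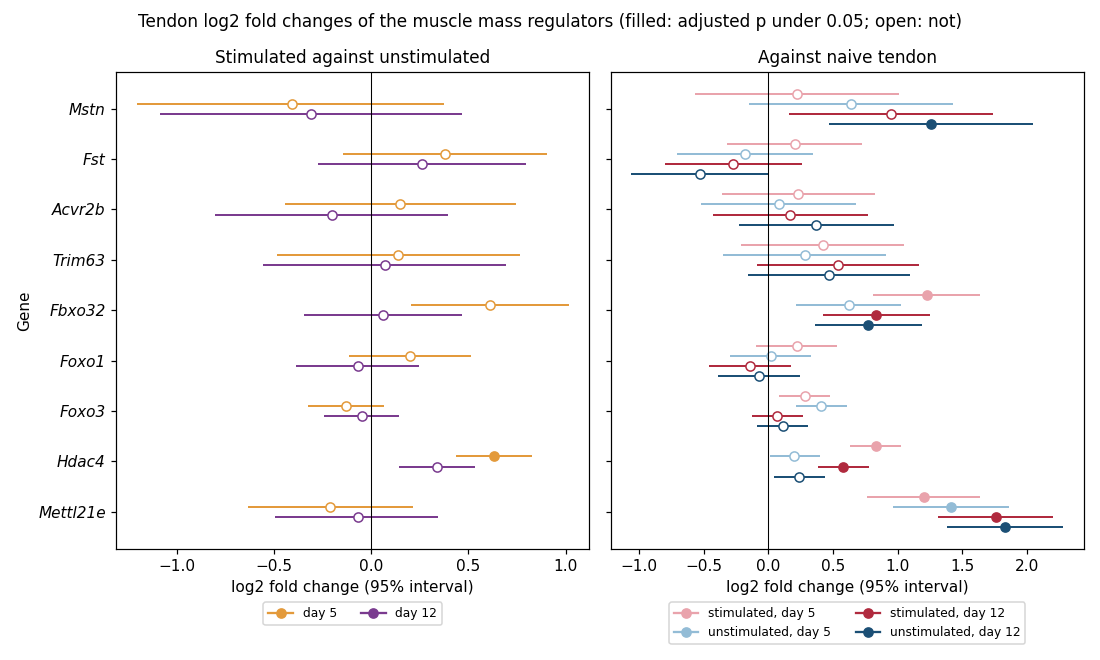
Log2 fold changes with 95% intervals for the 9 genes in tendon, on the left for stimulated against unstimulated tendon at each day and on the right for each later group against naive tendon, with filled points where edgeR's adjusted p was under 0.05. On the left only Hdac4 at day 5 is filled (0.63), and on the right Mettl21e is filled for all 4 groups, from 1.20 to 1.83.

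Whether the stimulation effect differed between days was tested as the effect at day 12 minus that at day 5. No member passed, and 0 of 17108 genes did with edgeR (0%), while 699 genes had an unadjusted p under 0.05. Hdac4 gave -0.28 ± 0.12 (unadjusted p = 0.0400) and Fbxo32 -0.55 ± 0.26 (unadjusted p = 0.0560), each with an adjusted p of 1. A change of effect between days is thus not shown for any of the 9 genes.

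Other genes of the pathway, kept in 8 lists, rarely differed with stimulation. No list had more than 2 genes past the threshold for stimulated against unstimulated tendon at either day. The genes were chosen with earlier results of these data known, so their counts describe the lists and do not test them. At day 5 the 17 receptor and SMAD genes had 1 higher and 0 lower, and the 20 genes of class IIa deacetylases, MEF2 and the denervation response had 0 higher and 1 lower. The list of FOXO targets of atrophy and autophagy also holds the FOXO factor genes Foxo4 and Foxo6. At day 12 its 23 genes had 2 higher and 0 lower. Gabarapl1, an autophagosome gene, was among these at 0.49 ± 0.08 (adjusted p = 0.0218). No gene passed at either day among the 11 tested ligand and processing genes, 9 extracellular inhibitors, 20 other ubiquitin ligases and deubiquitinases, 21 genes of the insulin, AKT and mTOR pathway, or the 8 genes of the METTL21 family list, Vcp included. These counts are fragile: the 2 calls of day 5 were each lost without any of 5 of the 6 libraries, and the 2 FOXO targets of day 12 without stimulated replicate 1 or any of the 3 unstimulated replicates. The medians of all 8 lists lay between -0.10 and 0.19 in both comparisons, beside 0 and 0.01 over all genes.

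Against naive tendon at day 12, calls among the ligands were mostly lower and those among the muscle ligases all higher. Of all 17108 genes tested, 2026 were called higher and 2143 lower in stimulated tendon. In unstimulated tendon, 1397 were called higher and 1812 lower. In either direction, that was 24.4% and 18.8% of all genes, the background for the list counts at day 12 here and below. The list counts were not tested against this background. Of 11 ligand and processing genes, 1 was higher and 6 lower in stimulated tendon (median -0.95), and 1 higher and 5 lower in unstimulated tendon (median -0.85). Inhba, which encodes the activin A subunit, fell in stimulated (-1.74 ± 0.28, adjusted p = 0.00281) and unstimulated tendon (-1.49 ± 0.28, adjusted p = 0.0104). Gdf11, which encodes the closest relative of myostatin, rose in stimulated (1.67 ± 0.29, adjusted p = 0.00384) and unstimulated tendon (1.03 ± 0.29, adjusted p = 0.0297). The processing genes Pcsk6, a proprotein convertase, and Bmp1, the protease that frees myostatin from its propeptide, fell in both groups, Pcsk6 at -1.92 ± 0.34 in stimulated and -1.74 ± 0.34 in unstimulated tendon.

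The counts for unstimulated tendon rest on single libraries. Without unstimulated replicate 2, 0 genes passed in 7 of the 8 lists and 1 gene, higher, among the FOXO targets. Without naive replicate 3, the ligases, the insulin pathway, the Hdac4 list and the METTL21 list also had 0. With the muscle fibre score as covariate, 6 ligand genes, 7 ligases and 2 genes of the METTL21 list passed in stimulated tendon. In unstimulated tendon that fit left 0 genes among the inhibitors, the ligases, the Hdac4 list and the METTL21 list, and 1 gene in each of the other 4 lists, so that most of the unstimulated counts given here and below were lost with it. In stimulated tendon, the 6 lower ligand genes were 2 without naive replicate 3, and the 7 higher ligases were 3 without naive replicate 3 or stimulated replicate 1.

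Of the 9 extracellular inhibitors, 0 were higher and 2 lower in both groups at day 12. Fstl1, a follistatin-like secreted protein gene, was at -1.69 ± 0.25 in stimulated (adjusted p = 0.00196) and -1.40 ± 0.25 in unstimulated tendon (adjusted p = 0.00944). Grem1, which encodes a BMP antagonist, was at -3.06 ± 0.82 in stimulated and -2.41 ± 0.76 in unstimulated tendon. Receptor and SMAD genes had 1 higher and 6 lower in stimulated and 2 higher and 7 lower in unstimulated tendon, of 17. Skil and Smad2 were lower in both groups, Smad2 at -0.39 ± 0.08 in stimulated and -0.34 ± 0.08 in unstimulated tendon.

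Of 20 other ubiquitin ligases and deubiquitinases, 7 were higher and 0 lower in stimulated tendon at day 12 (median 0.24), and 6 higher and 0 lower in unstimulated tendon (median 0.19). Asb2, a ubiquitin ligase subunit of muscle, led them at 1.27 ± 0.19 in stimulated (adjusted p = 0.00205) and 0.88 ± 0.19 in unstimulated tendon (adjusted p = 0.0137). Trim54, which encodes MuRF3, was at 0.54 ± 0.13 in stimulated and 0.44 ± 0.13 in unstimulated tendon, both past the threshold. In the background, 24.4% of all genes were called in stimulated and 18.8% in unstimulated tendon, in either direction.

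The FOXO target list had 5 higher and 2 lower of 23 in stimulated and 2 higher and 0 lower in unstimulated tendon at day 12. Map1lc3a, which encodes the autophagosome protein LC3A, rose in stimulated tendon at day 12 (1.08 ± 0.14, adjusted p = 0.000954), in unstimulated tendon at day 12 (0.88 ± 0.14, adjusted p = 0.00595) and in stimulated tendon at day 5 (0.98 ± 0.14, adjusted p = 0.00829). Gadd45a, a stress-induced gene of atrophying muscle, rose in stimulated tendon at day 5 (1.45 ± 0.31, adjusted p = 0.0332). Map1lc3a and Gadd45a were 2 of 3 genes of this list called in stimulated tendon at day 5. Of the 3, 0 to 1 passed with a library left out, and 0 without stimulated replicate 1. With the muscle fibre score as covariate, 1 passed. Sesn3 and Foxo6, the latter a FOXO factor gene, fell in stimulated tendon at day 12, at -0.68 ± 0.15 and -0.74 ± 0.17.

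In the insulin, AKT and mTOR list, 3 were higher and 1 lower of 21 in stimulated tendon at day 12, and 4 higher and 2 lower in unstimulated tendon. Deptor, an inhibitor of mTOR, was at 1.05 ± 0.17 in stimulated (adjusted p = 0.00281) and 0.69 ± 0.17 in unstimulated tendon (adjusted p = 0.0190). Igf1, the growth factor gene, was at -1.24 ± 0.32 in stimulated and -1.39 ± 0.32 in unstimulated tendon, both past the threshold. Of the 20 genes tested around Hdac4, 5 were higher and 1 lower in stimulated and 1 higher and 3 lower in unstimulated tendon. The calcium kinase genes Camk2d (0.83 ± 0.14) and Camk2g (0.66 ± 0.14) and the MEF2 gene Mef2a (0.55 ± 0.13) rose in stimulated tendon, and Myog, a myogenic regulator (-1.05 ± 0.25), and Hdac9, a class IIa deacetylase gene (-0.47 ± 0.12), fell in unstimulated tendon.

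Of the 8 genes of the METTL21 family list, 2 rose in both groups at day 12, where 24.4% of all genes were called in stimulated and 18.8% in unstimulated tendon. With the muscle fibre score as covariate, 2 passed in stimulated and 0 in unstimulated tendon, and without unstimulated replicate 2 or naive replicate 3 the unstimulated count was also 0. Mettl21c, the closest muscle relative of Mettl21e in this list, was at 1.29 ± 0.28 in stimulated (adjusted p = 0.00806) and 1.05 ± 0.27 in unstimulated tendon (adjusted p = 0.0242), and Mettl22 was at 0.54 ± 0.11 in stimulated and 0.49 ± 0.11 in unstimulated tendon. At day 5 without stimulation, no gene of the 8 lists passed against naive tendon. With stimulation at day 5, 0 to 3 genes of each list passed, where 2.29% of all genes were called, and Hdac9 was among them at -0.83 ± 0.12 (adjusted p = 0.00829). These counts were mostly lost with fewer libraries. The 2 genes called around Hdac4, both lower, were 0 to 1 with a library left out, 0 without stimulated replicate 1, and 1 with the muscle fibre score as covariate. The 1 lower ligand gene did not pass whichever of the 6 libraries was left out.

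Markers of cell types moved with these lists against naive tendon. Of the 25 muscle fibre genes, 16 were higher and 4 lower in stimulated tendon at day 12 (median 0.60) and 14 higher and 0 lower in unstimulated tendon (median 0.59). Of 8 tendon fibroblast genes, 4 were lower in stimulated and 6 in unstimulated tendon at day 12, and none was higher. Erythroid genes were lower in both groups for 4 of 4 tested, and cartilage genes for 3 of 5. Without naive replicate 3 the higher muscle fibre genes numbered 1 in stimulated and 0 in unstimulated tendon, and without unstimulated replicate 2 they numbered 0 in unstimulated tendon, while at least 3 of 4 erythroid genes stayed lower without any library. The part of these markers in the list counts was not tested, and the covariate fit above carries the limit given for Mstn. Between stimulated and unstimulated tendon, 0 of the 25 muscle fibre genes passed at day 5 (median -0.19) or day 12 (median -0.05), and 1 of 8 tendon fibroblast genes was lower at each day.

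**Figure D3:**
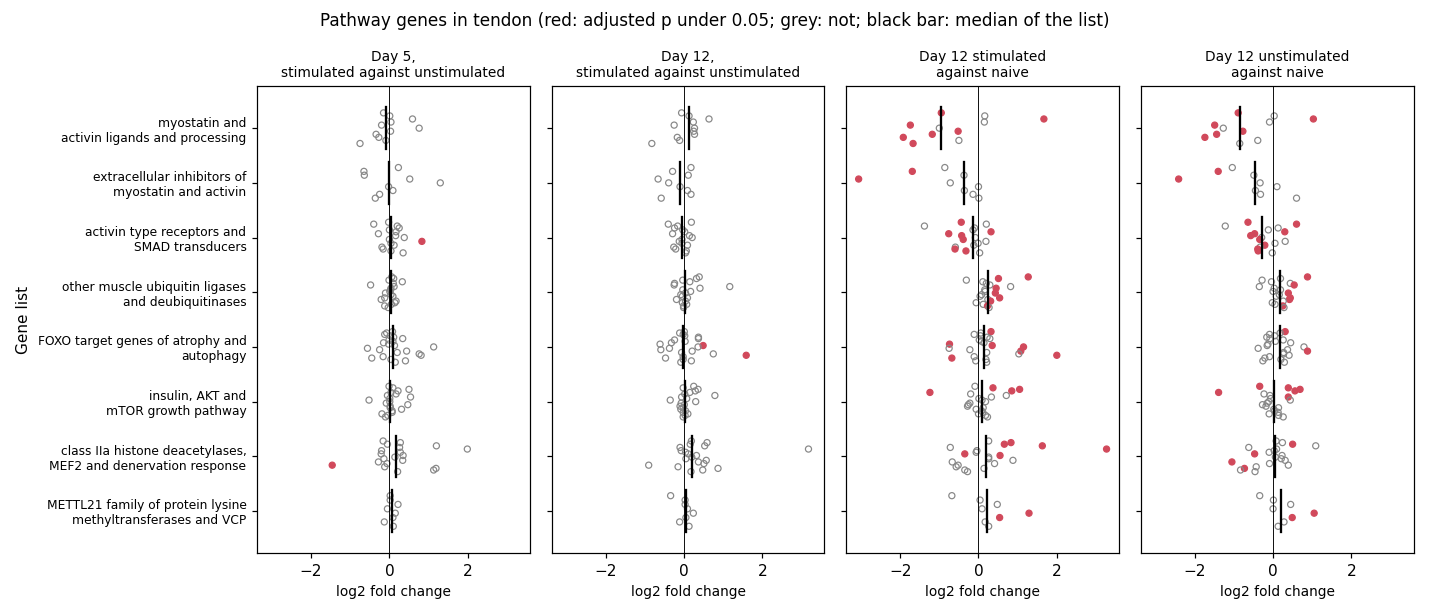
Log2 fold changes of the genes of 8 lists in 4 tendon comparisons, with a point per gene, red where edgeR's adjusted p was under 0.05, and a black bar at the list's median. The 2 panels of stimulated against unstimulated tendon hold few red points, whereas the panels against naive tendon at day 12 show ligand genes to the left (medians -0.95 in stimulated and -0.85 in unstimulated tendon) and muscle ligases to the right (0.24 and 0.19).

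Bone set a scale for how far the 9 genes follow muscle. Naive tendon and naive bone differed for 7 of the 9 genes, 6 of them higher in tendon, in a comparison where 68.4% of 19845 genes passed (33.3% higher and 35% lower). The libraries of the 2 tissues did not overlap for 7 members that were higher in tendon (35.7% of all genes) and for 1 that was lower (38.5%). Fitted over both tissues together, Trim63 had 347, 397 and 210 CPM in naive tendon, against 19.9, 13.2 and 0.155 CPM in naive bone (log2 fold change 4.83 ± 0.79, adjusted p = 1.37e-05). Fbxo32 had 153, 168 and 172 CPM in naive tendon, against 26.9, 18.4 and 12.3 CPM in naive bone (3.09 ± 0.27, adjusted p = 1.56e-09). Mstn had 21.6, 10.4 and 9.93 CPM in naive tendon, against 2.58, 2.56 and 0.0773 CPM in naive bone (2.97 ± 0.63, adjusted p = 0.000254). No naive tendon library of these 3 genes came near a naive bone library.

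Mettl21e was nearly absent from naive bone, with 3 counts in replicate 1 and 0 in the other replicates, against 143 counts in the 3 naive tendon libraries. The ratio of the depth-scaled counts was 42.7, with a 95% interval for counting error of 14.3 to 210. Acvr2b (2.15 ± 0.27) and Hdac4 (0.88 ± 0.14) were also higher in tendon, and Foxo3 was lower (-0.56 ± 0.09, adjusted p = 1.32e-05). Fst (0.45 ± 0.20, adjusted p = 0.0534) and Foxo1 (-0.18 ± 0.13, adjusted p = 0.241) did not pass.

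Naive bone replicate 3 stood apart: its muscle fibre genes took 0.0210% of the counts, beside 2.24% and 1.25% in replicates 1 and 2. Without it the tendon against bone values were 4.26 for Trim63, 2.44 for Mstn, 2.85 for Fbxo32 and 0.74 for Hdac4, all still past the threshold. With the muscle fibre score as covariate, 2 of the 9 genes passed, Fbxo32 (2.09 ± 0.33, adjusted p = 2.46e-05) and Acvr2b (1.62 ± 0.44, adjusted p = 0.00481), and Mstn was at -0.46 ± 0.84 (adjusted p = 0.692). Scaled together, tendon libraries scored 11.894 to 12.502 and bone libraries 1.701 to 9.763, with no overlap. This fit therefore extends a trend beyond the libraries of a tissue and cannot tell tissue from muscle fibre content.

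Within bone, 3 of the genes rose and fell most closely with the muscle fibre score, which is the mean log2 CPM of the 25 muscle fibre genes. Over 14 bone libraries, Trim63 had a Pearson r of 0.985 and a Spearman rho of 0.903 with the score, with permutation p adjusted over 18 relations of 9e-05 and 0.00054. For Mstn r was 0.934 and rho 0.859 (adjusted p 0.00012 and 0.00162), and for Fbxo32 r was 0.788 and rho 0.846 (9e-05 and 0.00162). Without the 2 libraries farthest from the median score, r was 0.879 for Trim63, 0.797 for Mstn and 0.851 for Fbxo32, and within groups, after removing group means, it was 0.994, 0.954 and 0.808.

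Mettl21e also passed, at an r of 0.636 and a rho of 0.723 (adjusted p 0.00936 and 0.0217), with an r of 0.538 without the 2 libraries and 0.425 within groups. The r of Foxo3, at -0.647, rested on those libraries, being -0.233 without them, and so did that of Fst, 0.612 with and 0.302 without them. Hdac4 had an r of 0.639 and a rho of 0.600, of which only r passed (adjusted p 0.0296 and 0.0907). Its r was 0.619 without the 2 libraries and 0.673 within groups. Foxo1 showed no relation (r = -0.00251), and Acvr2b did not pass (r = 0.439). In the 15 tendon libraries, where the score varied little, none of the 9 relations passed, the closest being Acvr2b (r = 0.579, adjusted p = 0.0554). The smallest p that these permutations can give is 1e-05.

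**Figure D4:**
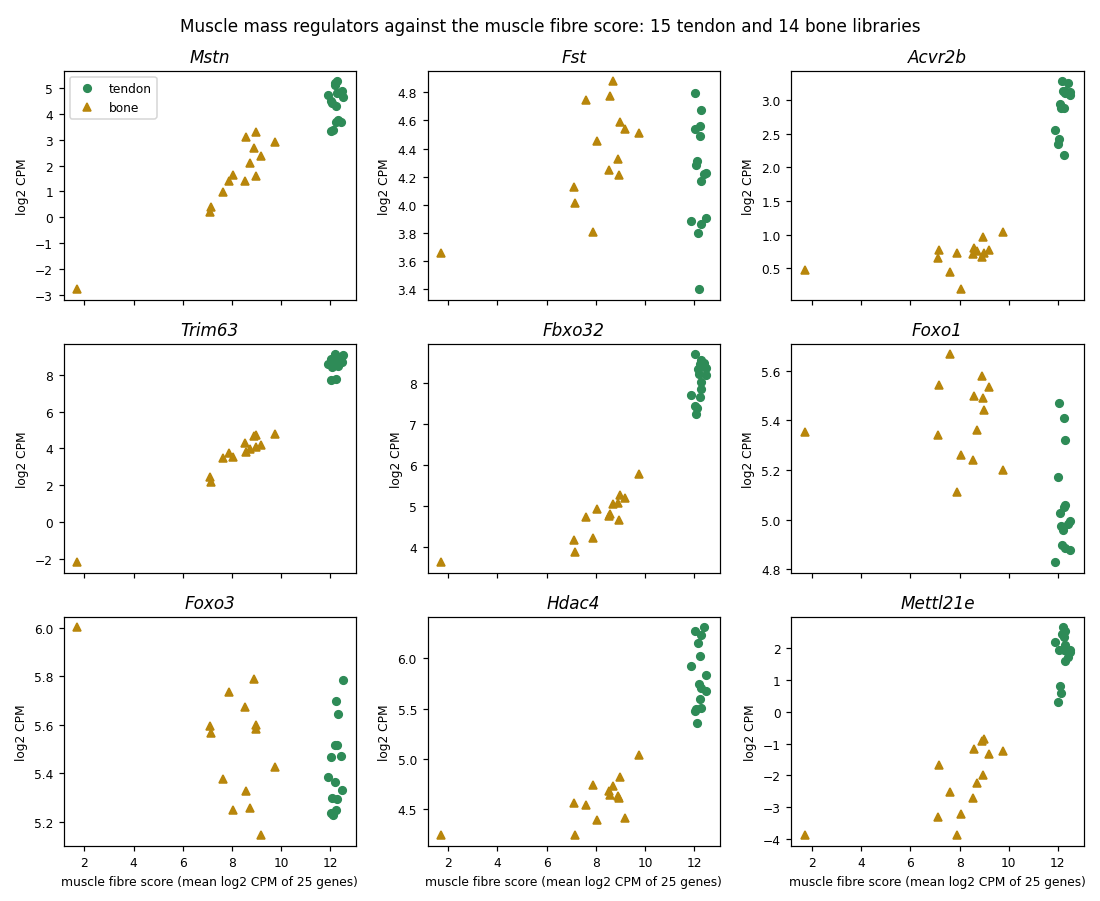
Log2 CPM of each gene against the muscle fibre score, the mean log2 CPM of 25 muscle fibre genes, for 15 tendon libraries (circles) and 14 bone libraries (triangles) scaled together. Trim63, Mstn and Fbxo32 climb with the score across bone (r of 0.985, 0.934 and 0.788 within bone), while the tendon libraries sit in a narrow band at the right.

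Stimulation left no call among the 9 genes in bone, where 0 of 18851 genes passed at day 5 (0%) with edgeR, 1522 at an unadjusted p under 0.05, and 7 at day 12 (0.0371%). At day 5 the stimulated libraries of 6 members lay wholly below the unstimulated ones, as 13.9% of all genes did. Mstn had 3.83, 1.66 and 1.45 CPM in stimulated bone, against 8.04 and 12.4 CPM in unstimulated bone (-2.13 ± 0.84, adjusted p = 0.566). Fbxo32 had 32.3, 19.3 and 23.8 CPM in stimulated bone, against 43.0 and 49.4 CPM in unstimulated bone (-0.88 ± 0.30, adjusted p = 0.546). The muscle fibre share was 2.93%, 0.873% and 0.778% in those stimulated libraries, against 2.53% and 2.69% in the unstimulated ones. With the muscle fibre score as covariate, Mstn was at -1.34 ± 0.39 (adjusted p = 0.578) and Fbxo32 at -0.70 ± 0.19 (adjusted p = 0.546). The part of muscle content in these values was not tested further.

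Hdac4 in bone at day 5 was at 31.2, 24.9 and 31.1 CPM in stimulated libraries, against 31.5 and 35.8 CPM in unstimulated libraries (-0.21 ± 0.18, interval -0.60 to 0.18). At day 12 it was at 27.1, 27.4 and 40.5 CPM in stimulated bone and 34.5, 30.6 and 32.8 CPM in unstimulated bone (-0.04 ± 0.16, interval -0.40 to 0.31). The day 5 interval does not reach the 0.63 measured in tendon, but the difference between the tissues was not tested. Fst at day 12 had 28.2, 30.1 and 28.1 CPM in stimulated bone, all below the 38.3, 35.2 and 35.9 CPM of unstimulated bone, as 10% of all genes were, and did not pass (-0.34 ± 0.12, adjusted p = 0.257).

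The genes whose pattern over the 15 tendon libraries was most like that of each called member were found by the root mean square difference of centred log2 CPM among 12552 genes. For Hdac4 they were Ets2 (0.152), a transcription factor gene, Ranbp9 (0.168) and Mocs2 (0.176). For Mettl21e they were Ppp1r3c (0.232), which encodes a glycogen-targeting phosphatase subunit, Ankrd9 (0.298) and the amino acid transporter gene Slc7a8 (0.310). For Mstn they included Gpd2 (0.204), a mitochondrial glycerol phosphate dehydrogenase gene, and Myh4 (0.227), the myosin of the fastest fibres. For Fbxo32 they were Tmem140 (0.173), Lpin1 (0.234), a phosphatidate phosphatase gene, and Rilpl1 (0.245).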

How the data were processed

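RNA was extracted with the PureLink kit and made into poly-A libraries, per the labels' protocols. The submitters' processing notes name cutadapt 2.3, FastQC 0.11.8, MultiQC 1.7, STAR 2.7.8a, RSEM 1.3.3 and build GRCm38; the order of these steps, the annotation and any strand option were not given in the sources used here. Per the file headers, the table that the authors deposited holds expected counts for each gene, in which RSEM divides ambiguous reads among similar genes. All deposited values were whole (0 were not), so rounding changed none.

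Groups came from tissue, day and stimulation in the labels; titles that read stimulated control were taken as stimulated. As no label ties replicates to different animals, a p-value here reflects spread between samples alone, and that spread may be technical. Bone unstimulated samples 1 and 2 at day 5 were summed into 1 library, a choice made after earlier results were seen.

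Counts were tested with edgeR 4.0.16 (limma 3.58.1, R 4.3.3): libraries were scaled by TMM, genes kept by filterByExpr (count of 10, total of 15), and 1 robust model fitted per tissue (or over both, for tendon against bone), with Benjamini-Hochberg adjustment over all genes tested at 0.05, in 10 comparisons. The fit was tested on simulated data. Levels are CPM over the TMM-scaled total. Dividing the log2 fold change by the root of its F statistic gave the standard error, and 95% intervals use its t quantile. Counting intervals cover counting error only. Scores used log2 CPM with a prior count of 2, and correlations 1e+05 permutations.

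The 9 genes and the lists were chosen with earlier results of these data known. All 9 are given in every comparison; at most 4 genes of a list, those lowest in adjusted p, could be named, and for each called gene the 3 most alike in pattern with a mean of at least 1 CPM, of which 1 is not reported here. Exon lengths and coordinates are GENCODE M21 (99.5% of IDs matched), and upstream sequences are RefSeq GRCm38.p6. Alternatives were DESeq2 1.42.0, its size factors in edgeR, no count filter, a replicate block, limma-voom with quality weights, the muscle fibre score as covariate, only the libraries compared, the close bone samples kept as 2, and leaving out each library; list counts without each library were added after seeing the data.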

Additional observations from a re-analysis of the deposited data

How the results depend on the processing

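Of 1241 values recomputed for the 9 genes, 1174 kept their direction and side of the threshold, 33 lost a call, 24 gained one and 10 changed direction. A sign change was counted only where a call was involved or the shift exceeded 1 SE. Members called in stimulated against unstimulated tendon at day 5 (1) numbered 5 with limma-voom: Hdac4, Fbxo32, Foxo1 and Fst, higher, and Mstn, lower. They numbered 0 with only the libraries compared and 0 to 1 with a library left out. Members called at day 12 (0) numbered 1 with DESeq2. Against naive tendon they numbered, for unstimulated tendon at day 5 (1), 5 with limma-voom, 2 with DESeq2, 0 with the muscle score, 0 with only the libraries compared and 0 to 1 with a library left out. For unstimulated tendon at day 12 (3) they numbered 5 with limma-voom, 1 with the muscle score and 1 to 3 with a library left out, and for stimulated tendon at day 5 (3) 5 with limma-voom and 1 to 3 with a library left out. Between naive tendon and naive bone (7) they numbered 2 with the muscle score, which did not overlap between the tissues.

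With a replicate block the call of Mettl21e in unstimulated tendon at day 5 was lost (1.40, adjusted p = 0.0571), which leaves 0 members called there, and the block changed no other count of members by more than 1.5 times. Tendon samples with the same number had r from -0.277 to 0.351 (median 0.0503, over 0.1 in 10 of 30 pairs). Those with different numbers had r from -0.296 to 0.302 (median -0.052, over 0.1 in 13 of 60 pairs). In bone the medians were -0.0583 for the same and 0.0131 for different numbers. These overlapping ranges do not settle whether the numbers pair samples.

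With limma-voom, Foxo3 turned to 0.05 for stimulated against unstimulated tendon at day 5 and to -0.09 for the change between days, and Mettl21e to -0.62 in bone at day 12. With the muscle score, Acvr2b turned to 0.11 for stimulated against unstimulated tendon at day 12, to -0.35 in unstimulated and -0.10 in stimulated tendon at day 5 against naive, and Mstn to -0.46 for tendon against bone. With a library left out, Fst ran from -0.03 to 0.48 for stimulated against unstimulated tendon at day 12, and Trim63 from -0.02 to 0.56 and Foxo1 from -0.19 to 0.11 in unstimulated tendon at day 5 against naive. The causes were not tested.

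Genes called over the whole table moved more: for stimulated against unstimulated tendon at day 5 (10) they ranged from 0 to 2507 over the alternatives and from 0 to 20 with a library left out, and at day 12 (59) from 0 to 367 and from 2 to 672. With 3 libraries a group, intervals of Trim63 and Mstn remain over 1 log2 unit wide.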

Other observations

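Genes of muscle precursors stood out in 1 stimulated library at day 12. Summed, the 8 genes took 0.0228%, 0.0207% and 0.176% of the counts in stimulated tendon at day 12, against 0.022%, 0.011% and 0.0139% in unstimulated tendon at day 12, so that stimulated replicate 3 lay far above the rest and the groups overlapped. The share was 0.0223% to 0.0308% in naive tendon. At day 5 it was 0.0234% to 0.0547% in stimulated and 0.0172% to 0.0845% in unstimulated tendon, replicate 3 being the highest in both. Against naive tendon, 4 of the 8 were higher and 0 lower in stimulated tendon at day 12 by edgeR's quasi-likelihood test (median log2 fold change 1.07). Mymx and Mymk, which encode the fusion proteins of myoblasts, were at 1.69 ± 0.35 (adjusted p = 0.00686) and 2.14 ± 0.58 (adjusted p = 0.0217), and Myod1, a myogenic regulator, at 1.27 ± 0.38 (adjusted p = 0.0324). Without stimulated replicate 3, 2 of the 8 were higher and the median was 0.35, and without any 1 of the 3 naive replicates 2 were higher, with medians of 1.02 to 1.12. For stimulated against unstimulated tendon at day 12, none of the 8 passed (median 1.37, and 0.39 without stimulated replicate 3), while 4 were higher without stimulated replicate 2.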
